A study of Homo sapiens with 6 samples.

Results

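The nuclear genes of the mitochondrial respiratory chain were examined in MCF10DCIS.com, a human breast cancer cell line that forms ductal carcinoma in situ-like lesions in mice, after silencing of WDR5, an adaptor subunit shared by the MLL/SET1 complexes that methylate histone H3. Members were taken by name from the 26334 rows of the deposited count table: gene names beginning NDUF, UQCR or ATP5, the COX genes numbered from the nuclear series, SDHA to SDHD, and CYC1. The rule matched 100 rows, of which 3 pseudogenes (ATP5EP2, NDUFAF4P1 and UQCRBP1) were left out. The remaining 97 comprised 92 protein genes, 3 RNA genes named as antisense and 2 read-through genes. The libraries came from 3 shLuc replicates, infected with a vector carrying a hairpin against luciferase, and 3 shWDR5 replicates, which the study made with hairpins against WDR5 used as a pool. In both groups the same vector backbone also encoded TagRFP and puromycin resistance, infected cells were kept under 3 µg/ml puromycin, and the medium held 5% horse serum and 1.05 mM CaCl2. The pooled hairpins were read together, so the values are not separable by hairpin, and nothing in the labels says that replicates were separate cultures, so the p-values measure only the spread between these libraries.

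The respiratory chain passes electrons from NADH through complex I, or from succinate through complex II, to ubiquinone, complex III and cytochrome c, and complex IV hands them to oxygen. Complexes I, III and IV pump protons across the inner mitochondrial membrane, and complex V, the ATP synthase, uses the return flow to make ATP. Complex II is also succinate dehydrogenase, an enzyme of the tricarboxylic acid (TCA) cycle, and is the only one of these complexes made entirely from nuclear genes. The mitochondrially encoded subunits were not analysed here. Promoters of many nuclear respiratory genes carry the recognition letters of NRF1, ETS factors or YY1.

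Promoter sequence is shown for the complex II genes present in the promoter table, which all fell, for UQCRFS1, the complex III gene that rose most, and for NDUFAB1, the complex I gene that fell most. Each line gives the 150 bases before the annotated start, 5′ to 3′ in the direction of transcription, from RefSeq on GRCh38.p14. Capitals mark the letters of NRF1 (GCGCA and GCGC with any 1 base between them) or of ETS factors (CCGGAAG), read on either strand.
SDHD promoter, chr11:112086723-112086872, plus strand: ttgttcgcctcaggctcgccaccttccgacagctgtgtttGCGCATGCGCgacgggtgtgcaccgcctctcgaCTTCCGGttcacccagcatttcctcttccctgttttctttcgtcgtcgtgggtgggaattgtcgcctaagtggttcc
SDHB promoter, chr1:17054033-17054182, minus strand: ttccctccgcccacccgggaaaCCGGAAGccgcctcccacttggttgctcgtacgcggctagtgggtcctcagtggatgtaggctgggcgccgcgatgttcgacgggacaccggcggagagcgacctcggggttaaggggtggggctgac
SDHA promoter, chr5:218170-218319, plus strand: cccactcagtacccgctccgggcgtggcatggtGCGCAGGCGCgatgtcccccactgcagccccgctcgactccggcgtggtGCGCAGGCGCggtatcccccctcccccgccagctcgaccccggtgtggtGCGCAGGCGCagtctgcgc
UQCRFS1 promoter, chr19:29213152-29213301, minus strand: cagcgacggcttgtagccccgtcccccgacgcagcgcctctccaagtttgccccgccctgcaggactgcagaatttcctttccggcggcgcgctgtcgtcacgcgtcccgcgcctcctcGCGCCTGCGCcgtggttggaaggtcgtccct
NDUFAB1 promoter, chr16:23596317-23596466, minus strand: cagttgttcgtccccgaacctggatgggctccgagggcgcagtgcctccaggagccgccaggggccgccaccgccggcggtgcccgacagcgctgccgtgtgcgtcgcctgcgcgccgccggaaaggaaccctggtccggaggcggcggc

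SDHD held an NRF1 match beginning 110 bases before the start and an ETS match at 77, SDHB an ETS match at 128, and SDHA the same NRF1 letters 3 times, at 117, 68 and 19. The UQCRFS1 match began at 31, and the NDUFAB1 stretch held neither motif. In windows of 250 bases before to 50 after the start, NRF1 letters stood in 17 of the 74 protein members with an entry (23.0%) and in 2031 of 35116 promoters of the whole table (5.78%). ETS letters were in 25.7% of members and 10.3% of all promoters, and the YY1 letters AAGATGGC in 14.9% and 2.89%. NRF1 letters were found on both sides of the comparison below: in 4 of 8 members that rose, 6 of 16 that fell and 6 of 47 that were not called. These matches describe letters only.

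Library depth was 38218108 to 57640167 counted reads. WDR5 stood at 52.6, 48.5 and 51.3 CPM (the usual depth-normalised read count, here on library sizes scaled by trimmed means) in shLuc and at 23.4, 24.4 and 20.8 in shWDR5, a log2 fold change of -1.15 (SE 0.073, adjusted p = 1.86e-07), so the libraries bore out their labels. Folds and adjusted p-values here and below come from edgeR's quasi-likelihood test over 16117 genes with Benjamini-Hochberg adjustment, and a gene was called when adjusted p was below 0.05. Silencing moved much of the transcriptome: 56.5% of all tested genes were called, 26.6% up and 29.9% down. Epithelial markers were present, and their summed level was higher after silencing (7115 to 7577 CPM in shLuc, 9265 to 10360 in shWDR5), with 4 of 8 up, KRT14 among them, and 2 down, CDH1 and EPCAM. Fibroblast markers summed to 21.4 to 22.7 CPM in shLuc and 14.4 to 17.4 in shWDR5, endothelial markers to 7.58 to 7.93 and 4.71 to 5.36, and leukocyte markers to 10.5 to 13.1 and 10.4 to 12.4, with LUM and CD3E at 0 in every library. The part of these marker shifts in the results below was not tested.

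As a set the respiratory chain genes showed no common direction. Of 91 members tested, 33 were called (36.3%), with 14 up and 19 down, a smaller share than the 56.5% of all genes. Their median log2 fold change was -0.03, against -0.01 for all genes tested. Members whose 3 shWDR5 values lay wholly above the shLuc values numbered 14, and wholly below 20, where 29.9% and 32.4% of all genes did so, 62.3% in either direction. By a size criterion taken from the study, an absolute log2 fold change of at least 0.6 together with the adjusted p, 3 members were up and 4 down. Of all genes, 10.9% and 12.0% met it. The study also required expression above 0.5 RPKM (CPM per kilobase of exon), which was not part of this count. NDUFV2-AS1, among those up, averaged 0.359 RPKM in shLuc and 0.627 in shWDR5. Within this mixture complex II stood out by its counts: its 4 genes all fell, where 29.9% of all tested genes were called down. Every other complex held calls of both directions. In complex IV these were only COX6A1, whose groups overlapped, and the low-level tissue isoform COX6B2.

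**Figure D1:**
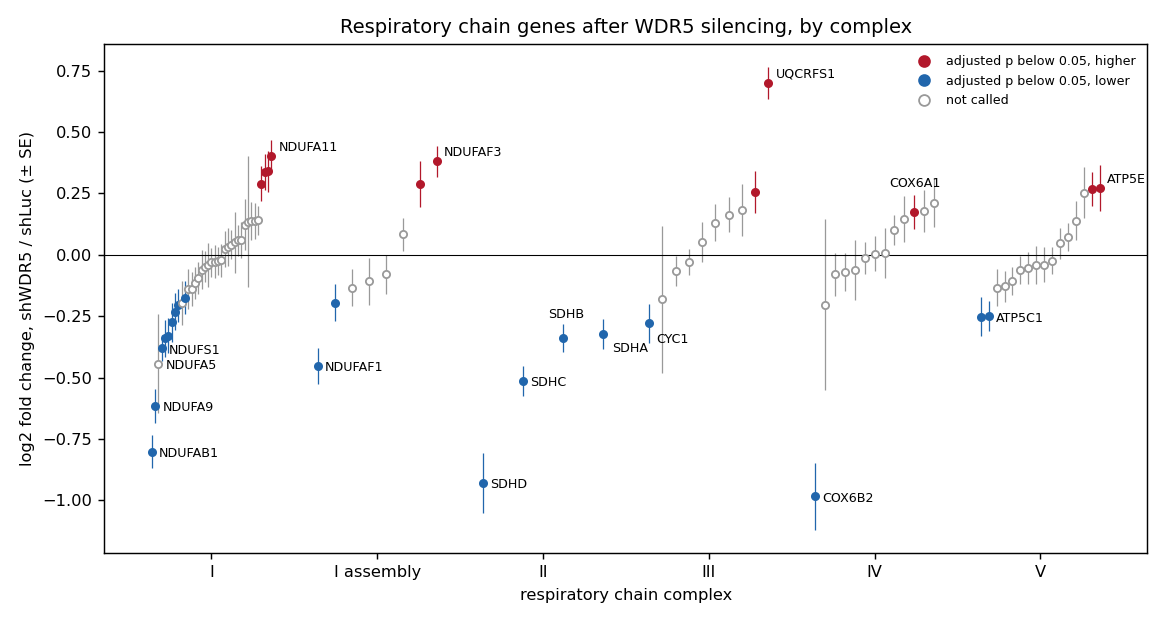
Log2 fold change of shWDR5 over shLuc for each tested protein member (points, with bars of ± 1 SE), ordered within each complex; filled red and blue points passed adjusted p below 0.05 as higher and lower, open grey points did not. All 4 complex II genes lie between -0.93 and -0.32, whereas complexes I, III, IV and V spread around 0.

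Complex II was lower in every shWDR5 library. SDHD, which encodes the small membrane anchor subunit that helps bind ubiquinone, read 53.2, 66.8 and 59.8 CPM in shLuc and 26.0, 35.8 and 32.5 in shWDR5. The groups were well apart, and mean SDHD fell by 47.5%, from 59.9 ± 6.80 to 31.4 ± 4.99 (SD, n = 3), with a log2 fold change of -0.93 (SE 0.124, edgeR adjusted p = 0.000222). SDHD also had the largest SE of the 4 genes. SDHC, the other membrane anchor, read 130, 119 and 131 CPM against 89.8, 92.5 and 84.0, again with no overlap (log2 fold change -0.51, SE 0.062, adjusted p = 2.51e-05). SDHB, the iron-sulfur subunit, read 109, 102 and 103 against 84.8, 83.3 and 80.0 CPM (-0.34, SE 0.056, adjusted p = 0.000275). SDHA, the flavoprotein that oxidises succinate, read 87.6, 83.4 and 83.6 against 69.1, 71.3 and 63.3 CPM (-0.32, SE 0.061, adjusted p = 0.000805). The membrane anchors thus showed the 2 larger fitted falls and the catalytic subunits the 2 smaller, with SDHA and SDHB within 1 SE of each other. In bulk RNA, less RNA per cell cannot be told apart from fewer cells that express the gene.

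In the hg19 coordinates of the count table, these genes lie at chr11:111957548-111966525 on the plus strand (SDHD), chr1:161284166-161334535 on the plus strand (SDHC), chr1:17345225-17380665 on the minus strand (SDHB) and chr5:218338-257197 on the plus strand (SDHA). SDHA has transcribed pseudogene copies whose reads can be hard to assign. SDHAP1 averaged 9.76 CPM in shLuc and 9.14 in shWDR5 (log2 fold change -0.09, adjusted p = 0.428) and SDHAP2 6.06 and 5.47 (-0.15, adjusted p = 0.216), both far below SDHA itself. How reads with several matches were counted is not given in the sources used here.

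**Figure D2:**
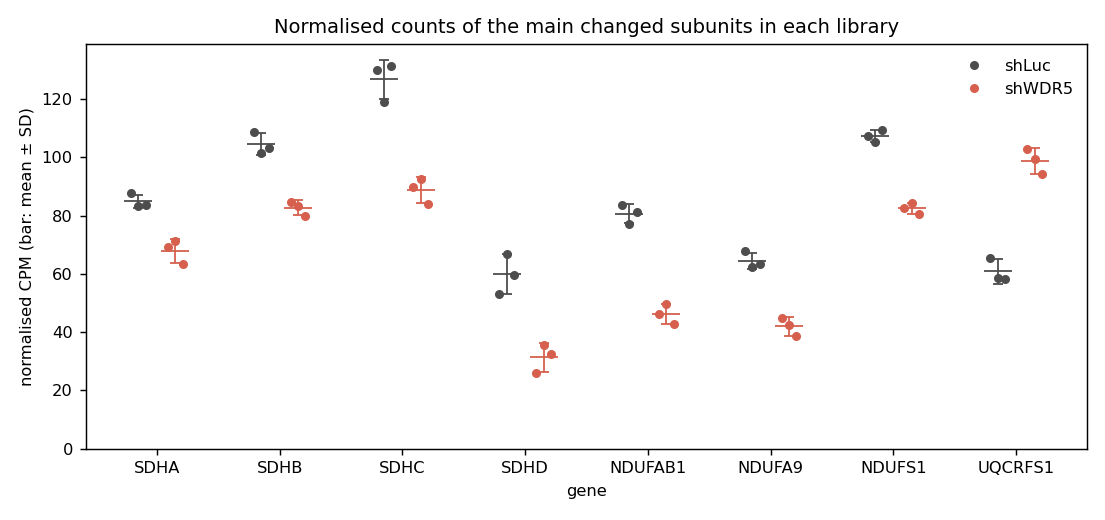
Normalised CPM of 8 changed subunits in each library (points; dark, shLuc; red, shWDR5), with the mean and bars of ± 1 SD over 3 replicates. The groups do not overlap for any of them, and UQCRFS1 is the gene of these 8 that is higher in shWDR5, at 94.1 to 102.9 CPM against 58.3 to 65.6.

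Complex I, the NADH dehydrogenase, was split. Of its 37 subunit genes 4 rose and 9 fell (35.1% called, against 56.5% of all tested genes). Their median log2 fold change was -0.03, and none of those that rose reached the size criterion. NDUFAB1, the mitochondrial acyl carrier protein that also serves as a complex I subunit, read 83.5, 77.1 and 81.2 CPM in shLuc and 46.2, 49.7 and 42.7 in shWDR5. This was the largest fitted fall in the complex, with wide separation of the groups (log2 fold change -0.80, SE 0.067, adjusted p = 1.50e-06). NDUFA9, an accessory subunit near the ubiquinone site, read 67.7, 62.2 and 63.3 against 45.0, 42.6 and 38.6 CPM (-0.61, SE 0.069, adjusted p = 1.49e-05). NDUFAB1 lies at chr16:23592335-23607639 on the minus strand and NDUFA9 at chr12:4758264-4796720 on the plus strand (hg19).

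The 7 nuclear-encoded core subunits of complex I carry its flavin and iron-sulfur centres and help form its ubiquinone site. Their median log2 fold change was -0.14, and 3 of them passed the test (42.9%, against 56.5% of all tested genes). NDUFS1, the largest subunit of the electron-input module, read 107, 105 and 109 CPM in shLuc and 82.5, 84.4 and 80.6 in shWDR5, with little spread in either group (-0.38, SE 0.053, adjusted p = 7.70e-05). Its partners in that module moved less: NDUFV1, which binds NADH, had a log2 fold change of -0.21 (adjusted p = 0.0201) and NDUFV2 of -0.17 (adjusted p = 0.0395). Neither of these calls was kept in every alternative analysis: NDUFV1 was called in 12 of 15 and NDUFV2 in only 6 of 15. NDUFS7 was lower in each shWDR5 library than in any shLuc library (32.9, 31.3 and 29.5 against 36.6, 33.2 and 33.3 CPM) but missed the threshold (adjusted p = 0.114).

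Among the 30 supernumerary subunits of complex I, which surround the core, 4 rose and 6 fell (33.3% called, against 56.5% of all tested genes). Besides NDUFAB1 and NDUFA9, those that fell were NDUFB3 (-0.34, adjusted p = 0.00219), NDUFB5 (-0.33, adjusted p = 0.00183), NDUFA8 (-0.27, adjusted p = 0.0107) and NDUFA6 (-0.23, adjusted p = 0.0196). The 4 that rose were NDUFA11, a membrane subunit (53.9 ± 2.54 to 71.3 ± 5.09 CPM, SD, n = 3, log2 fold change 0.40, adjusted p = 0.000305), NDUFA3 (0.34, adjusted p = 0.00446), NDUFS5 (0.34, adjusted p = 0.00183) and NDUFS6 (0.29, adjusted p = 0.0045). NDUFA5 had the third lowest fitted value in complex I, -0.44, but its adjusted p was 0.104. Its libraries were scattered, at 23.6, 33.6 and 31.7 CPM in shLuc and 16.6, 21.7 and 26.9 in shWDR5, with replicate 1 the lowest in both groups.

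Complex I assembly factors named by the rule, 8 in all, also divided, with 2 up and 2 down (50.0% called, near the 56.5% of all tested genes). NDUFAF1, which acts on an early membrane intermediate, fell from 22.9 ± 0.995 to 16.7 ± 0.890 CPM (-0.45, adjusted p = 0.00021), and NDUFAF5 had a smaller fall (-0.19, adjusted p = 0.0434). NDUFAF3 rose from 40.4 ± 1.57 to 52.6 ± 2.45 CPM (0.38, adjusted p = 0.000269) and NDUFAF6 from 7.05 ± 0.546 to 8.61 ± 0.746 (0.29, adjusted p = 0.021), all as mean ± SD of 3 replicates. The NDUFAF5 and NDUFAF6 calls were not kept in every alternative analysis: NDUFAF5 was called in only 3 of 15 and NDUFAF6 in 11 of 15.

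Complex III gave the largest rise of any protein member. Of its 10 genes 2 rose and 1 fell (30.0% called, against 56.5% of all tested genes). UQCRFS1, the Rieske iron-sulfur protein that takes electrons from ubiquinol, read 65.6, 58.6 and 58.3 CPM in shLuc and 102.9, 99.4 and 94.1 in shWDR5. Its groups were far apart, and the mean rose by 62.4%, from 60.8 ± 4.13 to 98.8 ± 4.41 CPM (log2 fold change 0.70, SE 0.065, adjusted p = 3.23e-06). It lies at chr19:29698167-29704136 on the minus strand (hg19). CYC1, cytochrome c1, which receives the electron from the Rieske protein, went the other way, from 111, 96.6 and 91.1 to 87.1, 83.5 and 75.7 CPM (-0.28, SE 0.080, adjusted p = 0.0109). Both catalytic nuclear subunits of this complex were therefore called, in opposite directions. UQCR11, a small subunit, rose by less (0.26, SE 0.087, adjusted p = 0.0262), and that call was lost in 5 of 15 alternative analyses. The core protein UQCRC1 stayed within the replicate spread, at 249, 236 and 218 against 234, 222 and 215 CPM (adjusted p = 0.399).

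Complex IV, cytochrome c oxidase, held few calls among its nuclear genes, 15.4% of those tested against 56.5% of all tested genes. One broadly expressed subunit, COX6A1, rose slightly from 145, 126 and 132 to 162, 149 and 143 CPM (0.17, SE 0.069, adjusted p = 0.0478), with overlapping groups, and that call was lost in 6 of 15 alternative analyses. COX5B was level, at 85.5, 73.2 and 90.0 CPM in shLuc and 83.4, 83.1 and 83.1 in shWDR5, with a 95% interval of -0.15 to 0.16 on the log2 scale. COX5A had an interval of -0.24 to 0.10. NDUFA4, first described in complex I and now placed in complex IV, had a log2 fold change of 0.18 and missed the threshold (adjusted p = 0.0992).

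Of the tissue-restricted isoforms of complex IV, COX6B2, known from testis, was the one that changed. It read 3.46, 4.20 and 3.22 CPM in shLuc and 1.64, 1.95 and 1.87 in shWDR5 (-0.98, SE 0.135, adjusted p = 6.94e-05), the largest fitted fall among members but at a low level. Per gene length, COX6B2 made up 0.947 ± 0.190% (SD, n = 3) of the summed RPKM of COX6B1 and COX6B2 in shLuc and 0.444 ± 0.0576% in shWDR5. NDUFA4L2, a paralogue of NDUFA4 known as a hypoxia target, was at 4.84, 5.18 and 4.01 against 5.01, 4.01 and 4.48 CPM (adjusted p = 0.694). The muscle and heart isoform COX7A1 was near the floor, at 0.283, 0.309 and 0.173 against 0.281, 0.194 and 0.199 CPM (adjusted p = 0.647). COX6A2 and COX8C had 1 read each over the 6 libraries and COX7B2 had 0, so they were not tested.

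Complex V was close to level in its most abundant genes. ATP5B, the catalytic beta subunit, read 742, 696 and 715 CPM in shLuc and 792, 764 and 707 in shWDR5, with overlap and a 95% interval of -0.05 to 0.20 for the log2 fold change. ATP5A1, the alpha subunit, read 593, 540 and 573 against 542, 538 and 503 CPM, an interval of -0.23 to 0.02. Of 16 genes tested, 2 rose and 2 fell. ATP5C1, the gamma subunit of the rotating stalk, fell from 184 ± 12.4 to 155 ± 5.42 CPM (SD, n = 3, -0.25, adjusted p = 0.00426). ATP5G1, one of the genes for the membrane ring subunit c, fell by 0.25 on the log2 scale (adjusted p = 0.0158), while its paralogues ATP5G2 and ATP5G3, which encode the same mature protein, did not pass the test. The share of ATP5G1 in the summed RPKM of the 3 c subunit genes went from 50.0 ± 0.573% to 47.1 ± 0.915% (SD, n = 3). ATP5J2 rose by 0.27 (adjusted p = 0.00561) and ATP5E, the epsilon subunit, by 0.27 (adjusted p = 0.0292). ATP5L2, a copy of ATP5L, had 1 to 10 reads per library and was not tested.

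Some of these genes share exon sequence with other annotated genes. ATP5E shares 66.3% of its exon bases with the read-through gene SLMO2-ATP5E, ATP5J2 35.4% with ATP5J2-PTCD1 and NDUFC2 32.2% with NDUFC2-KCTD14 and THRSP. The 3 read-through genes named here were listed at 0 reads in every library. Of these, NDUFC2-KCTD14 and ATP5J2-PTCD1 share 100% of their exon bases with other genes, so 0 reads does not show that they were silent. The counts of ATP5E, ATP5J2 and NDUFC2 also depend on how shared reads were assigned. ATP5J shares 48.8% of its exon bases with GABPA on the opposite strand, so both readings depend on the strand setting of the counting. The 3 RNA genes named as antisense rose, where 26.6% of all tested genes did so. NDUFA6-AS1 went from 2.53, 2.50 and 2.45 to 3.97, 3.87 and 3.66 CPM (0.62, SE 0.103, adjusted p = 0.000297). NDUFB2-AS1 rose by 0.54 (SE 0.152, adjusted p = 0.00951) and NDUFV2-AS1 by 0.77 (SE 0.304, adjusted p = 0.0466). The last averaged 0.303 CPM in shLuc, and its call was lost in 7 of 15 alternative analyses. NDUFB2-AS1 shares 140 exon bases with NDUFB2 on the other strand, and since the strand setting of the counting is not given in the sources used here, reads of these bases cannot be told apart. NDUFA6-AS1 and NDUFV2-AS1 share 0 exon bases with other genes of the table. RefSeq lists NDUFA6-AS1 as NDUFA6-DT, and it starts 49 bases from NDUFA6 on the opposite strand without overlapping it.

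Levels per gene length were set side by side as RPKM, the normalised CPM for each kilobase of the gene's exons. The nuclear complex IV subunits, without the tissue isoforms, had the highest median, 186 RPKM in shLuc and 180 in shWDR5, with COX7C at the top (447 and 495). Complex V followed at 89.3 and 90.7, with ATP5B highest (389 and 409). Complex I had a median of 58.5 in shLuc and 52.5 in shWDR5 and complex III of 53.9 and 66.2. The 10 complex III genes include UQCRHL, near the floor at 0.661 and 0.569, which lowers the shLuc median more than the shWDR5 median. The complex III medians therefore overstate its rise. Complex II was the lowest of the complexes, at 41.0 and 27.6, and its own order changed: SDHB led in both groups (91.3 and 72.2), but SDHD went from 38.0, above SDHA at 30.4, to 19.9, below SDHA at 24.3.

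**Figure D3:**
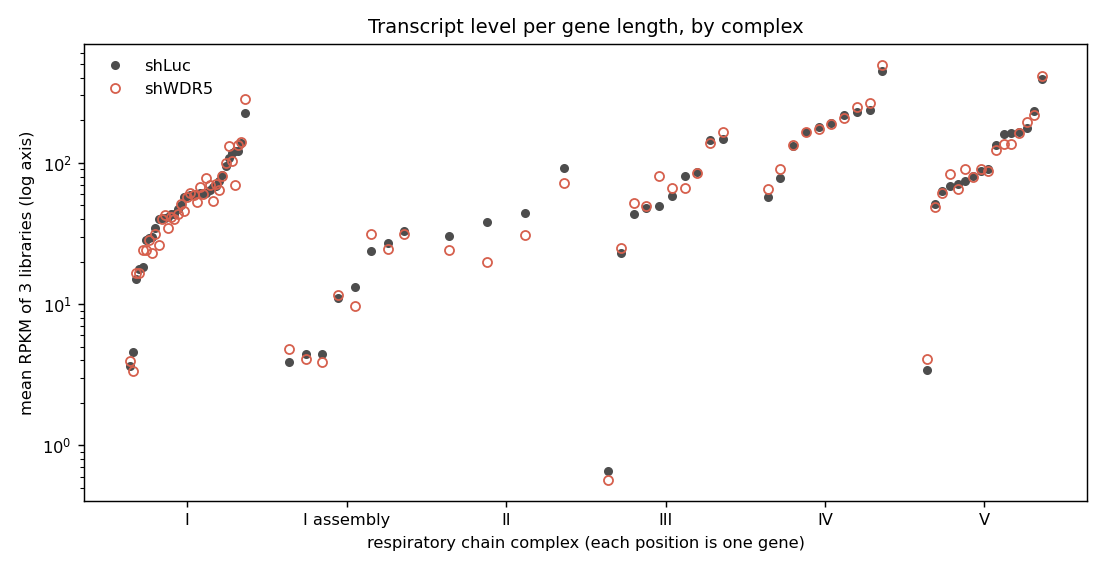
Mean RPKM over 3 replicates for each tested gene (log axis), one horizontal position per gene, ordered within each complex by the shLuc value; dark points are shLuc and open red points shWDR5. Most pairs nearly coincide, while the 4 complex II pairs all have the shWDR5 point lower, and tissue isoforms of complex IV are left out.

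Gene length was unevenly spread across the comparison. Of 44 protein members shorter than 1000 bases 6 rose and 5 fell, and of 44 that were longer 5 rose and 14 fell. Among all tested genes the shorter ones also had more rises, 323 up and 230 down of 1179, and the longer ones fewer, 3969 up and 4581 down of 14938. The complex II genes are 1145 to 2879 bases long, and with the fold changes adjusted for length they fell in the same way.

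Genes outside the name rule gave the context. Among 8 other subunits and electron carriers tested 2 rose and 6 did not pass the test, against 56.5% of all tested genes called, and COX4I1, the main complex IV subunit missed by the name rule, rose by 0.23 on the log2 scale (adjusted p = 0.00829). Cytochrome c itself, CYCS, had a log2 fold change of 0.14 (adjusted p = 0.525). In the TCA cycle, which shares complex II, 8 of 13 genes fell and 3 rose (84.6% called), with a median of -0.35, where 29.9% of all tested genes fell and 26.6% rose. FH, fumarase, which acts on the product of complex II, fell from 161 ± 6.13 to 103 ± 4.23 CPM (SD, n = 3, -0.65, adjusted p = 2.11e-06), and SUCLG1, a subunit of the synthetase that makes succinate, by 0.59 (adjusted p = 3.16e-05). In contrast, MDH2, malate dehydrogenase, rose by 0.23 (adjusted p = 0.00232) and CS, citrate synthase, did not pass (-0.05, adjusted p = 0.427).

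Of 41 further assembly factors 8 rose and 15 fell, with a median of -0.09, and the 56.1% called was close to the 56.5% of all tested genes. ECSIT, a complex I assembly factor that also acts in innate signalling, fell from 26.2 ± 2.19 to 10.6 ± 0.999 CPM (SD, n = 3, -1.30, adjusted p = 3.35e-07), and SURF1, needed for complex IV, rose from 16.3 to 25.5 (0.65, adjusted p = 0.000109). The complex II assembly factors did not move together. SDHAF4 (-0.71, adjusted p = 0.000186), which acts on flavinated SDHA, and SDHAF3 (-0.45, adjusted p = 0.00146), which acts on SDHB, fell. SDHAF2, needed for flavin attachment to SDHA, rose (0.40, adjusted p = 0.00029), and SDHAF1 did not pass the test (0.13, adjusted p = 0.166).

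Of 17 regulators of respiratory gene transcription and mitochondrial DNA, 6 rose and 3 fell, and the 52.9% called was again near the 56.5% of all tested genes. ESRRA, the estrogen-related receptor alpha, fell from 59.8 ± 4.66 to 39.0 ± 1.63 CPM (SD, n = 3, -0.62, adjusted p = 1.46e-05). The PGC-1 coactivators split, with PPARGC1A at 0.46 (adjusted p = 0.000774) and PPARGC1B at -0.42 (adjusted p = 0.000945). MYC rose by 0.39 (adjusted p = 5.81e-05), while NRF1 (0.12, adjusted p = 0.214) and GABPA, an ETS factor (-0.10, adjusted p = 0.605), did not pass. Of the partner subunits of GABPA, GABPB2 rose (0.43, adjusted p = 0.00348) and GABPB1 did not pass (0.18, adjusted p = 0.153). The GABPA reading carries the limit of the exon bases that it shares with ATP5J.

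**Figure D4:**
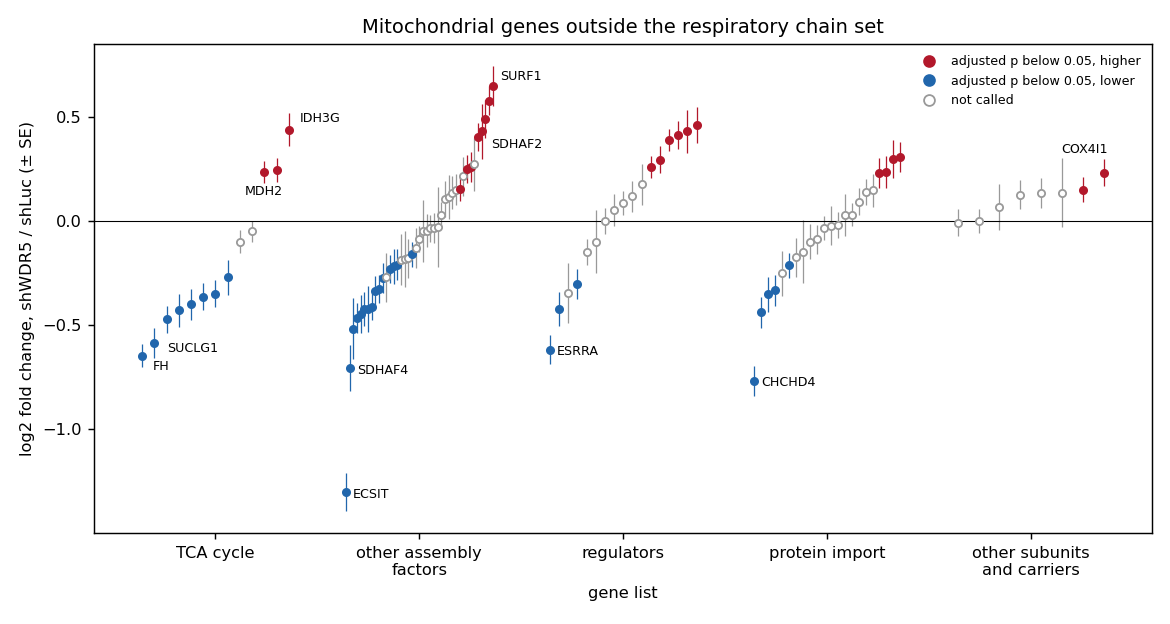
Log2 fold change of shWDR5 over shLuc (points, with bars of ± 1 SE) for mitochondrial genes outside the respiratory chain set, by list; colours as for the complexes. FH at -0.65 leads the 8 TCA cycle genes that fell, and ECSIT at -1.30 is the lowest of the assembly factors.

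Many of these genes start close to a gene on the other strand. A divergent neighbour was a gene on the other strand that starts within 1000 bases upstream of the annotated start (hg19). Pairs whose starts overlap, such as NDUFB2 and NDUFB2-AS1, were not counted. By this definition 28 of 88 tested protein members (31.8%) had a divergent neighbour, against 2273 of 16100 genes (14.1%). In 23 pairs with both genes tested, both were called in 8, of which 5 went the same way and 3 opposite ways, and in 9 only the neighbour was called. Since 56.5% of all tested genes were called, these counts are a description of the pairs only. SDHD is one of the opposite pairs: its start is 26 bases from that of TIMM8B, which encodes an intermembrane space chaperone. TIMM8B read 33.5, 26.5 and 29.4 CPM in shLuc and 39.8, 36.7 and 33.6 in shWDR5, so that the lowest shWDR5 value only just exceeded the highest shLuc value (0.30, SE 0.092, adjusted p = 0.0162). SDHA starts 41 bases from CCDC127, which did not pass the test (0.06, adjusted p = 0.564). NDUFA6 fell and NDUFA6-AS1, 49 bases away, rose. NDUFS1 and EEF1B2 fell together (-0.38 and -0.22), as did NDUFB5 and MRPL47 (-0.33 and -0.24) and NDUFB3 and FAM126B (-0.34 and -0.80), while NDUFA11 and VMAC rose together (0.40 and 0.98).

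**Figure D5:**
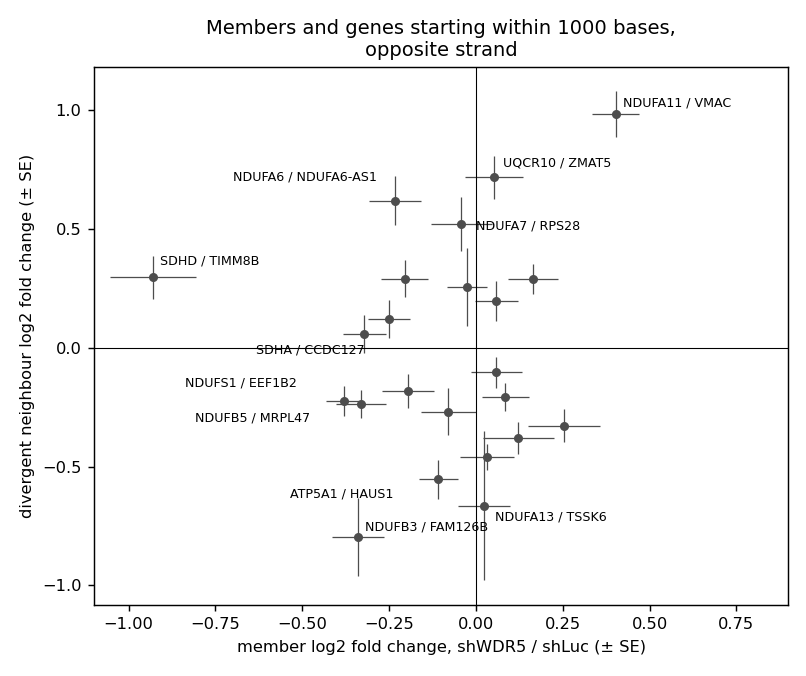
Log2 fold change of each member (horizontal axis) against that of its divergent neighbour (vertical axis) for 23 pairs, with bars of ± 1 SE. Each neighbour starts within 1000 bases upstream of the member, on the opposite strand. SDHD and TIMM8B lie in the upper left, at -0.93 and 0.30, and pairs fall in all quadrants.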

How the data were processed

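RNA was measured in 6 libraries, 3 shLuc and 3 shWDR5, prepared with a poly-A TruSeq kit. Per the labels and the submitters' processing notes, the authors used TopHat2 (2.1.0), featureCounts and edgeR (3.2.2) with hg19 (GRCh37), and deposited raw counts per gene. A second deposited table holds the authors' own comparison (fold change, mean level, F, p and FDR) and was not used. The counts were fitted here in R 4.3.3 with edgeR 4.0.16: trimmed-mean scaling, filterByExpr, robust quasi-likelihood fit and test without a replicate block, and Benjamini-Hochberg adjustment over 16117 genes. The SE is the absolute log2 fold change over the square root of F. The biological coefficient of variation was 7.23%, and replicates differed beyond sampling noise. Replicate 1 stood apart in both groups. Chi-square per gene was 16.8 and 15.1 for its shLuc pairs and 7.59 for replicates 2 and 3. In shWDR5 it was 14.2 and 18.2, against 7.11. A poly-A library reads transcript abundance, not transcription or protein, and short or overlapping genes depend on how shared reads were counted. No test was run over a list.

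Members and lists were chosen with earlier results of these data known. Text names members past the size criterion, the 3 lowest adjusted p per complex, set core subunits and isoforms, and up to 4 genes per other list past the size criterion; further called members, and genes near them in the pathway or the genome, were chosen after their values were seen. A core subunit that the rule names is not reported here. DESeq2 1.42.0, other scalings and filters, a length adjustment, a replicate block and leaving out each replicate were alternatives. The code was tested on simulated data with known changes. Changes of 0.3 on the log2 scale were given to 66 of 16117 genes, of 0.6 to 69 and of 1 to 65. The code recovered 28.8% of those of 0.3, 92.8% of those of 0.6 and 100% of those of 1. False calls made up 13.5% of the calls in that simulation. In the measured data a far larger share of genes, 56.5%, was called, and whether these percentages hold there was not tested. Small changes that were called remain uncertain, and a gene that did not pass may still have changed by a small amount. RefSeq promoters (GRCh38.p14) matched 74 of 92 protein members and were not joined to hg19 coordinates.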

Additional observations from a re-analysis of the deposited data

How the results depend on the processing

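Over 15 alternative analyses, 22 of the 33 called members were called in all, among them the 4 complex II genes, UQCRFS1, NDUFAB1, NDUFA9, NDUFS1, COX6B2, CYC1 and ATP5C1. The other 11 calls were lost in at least 1: NDUFV1, NDUFV2, NDUFA6, NDUFA8, NDUFAF5, NDUFAF6, UQCR11, COX6A1, ATP5G1, ATP5E and NDUFV2-AS1. Values near 0 changed sign: COX5A ran from -0.17 to 0.01 with 1 replicate left out, positive without shLuc replicate 1. COX5B was -0.05 without scaling factors, 0.00 without a filter, -0.02 with length adjustment with or without the block, and -0.09 (without shLuc replicate 2) to 0.06 with 1 replicate left out. NDUFA4L2 ran from -0.16 to 0.02, at 0.00 without shLuc replicate 2 and 0.02 without shWDR5 replicate 2. The cause was not tested.

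Counts of calls moved as follows, up before down. Under the size criterion all genes gave 1749 and 1935 and members 3 and 4, complex I 0 and 2, its assembly factors 0 and 0, complex III 1 and 0, complex V 0 and 0, complex II fell to 1 down and complex IV to 0 up. Without scaling factors the rises were 9 for members, 1 for assembly factors, 1 for complex III, 0 for complex IV and 1 for complex V, with 5 falls in complex V. Falls among assembly factors were 1 with RLE or upper-quartile scaling, DESeq2, no filter, the RPKM filter and length adjustment. Complex IV rises were 2 with DESeq2, 0 without a filter and 2 with length adjustment.

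Leaving out 1 replicate gave ranges of 9 to 16 members up and 13 to 20 down, 4 to 5 and 5 to 10 in complex I, 1 to 2 and 1 to 2 among assembly factors, 1 to 4 up in complex III, 0 to 2 up in complex IV, and 1 to 3 up and 1 to 2 down in complex V, while complex II kept 4 down. The lowest member count up, 9, came without shLuc replicate 2, and the lowest complex I count down, 5, without shLuc replicate 1. Same-numbered libraries deviated together with correlations of 0.37, 0.04 and 0.12, and not every sample correlated best with its own number, so the numbers were not taken as pairs. With the replicate block 4909 genes rose and 5521 fell, 19 members rose and 26 fell, complex IV had 3 rises and complex V 4 falls. With the block and length adjustment together 22 members rose, complex I had 14 falls, assembly factors 1 fall, complex III 5 rises, complex IV 2 rises and 2 falls, and complex V 4 rises. At this depth the isoforms COX6A2, COX7B2 and COX8C and the gene ATP5L2 were too low to test.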

Other observations

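Of 22 genes of mitochondrial protein import, 4 rose and 5 fell (40.9% called, against 56.5% of all tested genes), with a median log2 fold change of -0.03. CHCHD4, the oxidoreductase that traps small cysteine-rich proteins in the intermembrane space, fell from 19.0 ± 0.358 to 11.2 ± 0.547 CPM (SD, n = 3, log2 fold change -0.77, SE 0.071, edgeR adjusted p = 3.21e-06). GFER, the sulfhydryl oxidase that recycles it, fell too (-0.35, adjusted p = 0.00361). Several respiratory members depend on this route as textbook background. Among them NDUFA8 fell (-0.27), NDUFS5 rose (0.34), and NDUFB7 (-0.02, adjusted p = 0.804) and COX6B1 (0.10, adjusted p = 0.189) did not pass the test. The import chaperones divided, with TIMM9 lower (-0.33, adjusted p = 0.00203) and TIMM13 and TIMM8B higher (0.23, adjusted p = 0.0182, and 0.30, adjusted p = 0.0162).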
